A study of Mus musculus with 4 samples.

Results

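A set of 10 regulators of the embryonic midbrain and floor plate was examined in mouse embryonic fibroblasts (MEFs), connective-tissue cells grown out of embryos. The genes are En1, En2, Cnpy1, Foxa1, Foxa2, Otx2, Lmx1a, Lmx1b, Shh and Nkx2-2. They were taken by the gene name given to each probe in the scanner files, which found 11 of 41174 probes, with 2 probes for Cnpy1 and 1 for each other gene. The group was chosen by the log2 ratios of En2 and Foxa2, both much higher in the RNA labelled CycG2-/- than in its wild type (WT), so values from that comparison are a description of the choice and were not tested.

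The study compared 4 RNAs. CycG1-/- MEFs, in which all coding exons of the cyclin G1 gene had been replaced by a selection cassette, were set against CycG1+/+ WT MEFs. MEFs labelled CycG2-/-, for the cyclin G2 gene, were set against CycG2+/+ WT MEFs, and which part of that gene was deleted is not given in the sources used here. All cultures were untreated and dividing, and their strain was given as C57BL/6J, although another field of the CycG2 labels reads C57BL/7J. Each knockout RNA was hybridised with its WT RNA on 2 arrays, once with the knockout in the dye Cy5 and once in Cy3. Each RNA thus had 2 readings, and there was 1 replicate per genotype. No WT RNA was shared, no p-value could be had, and each ± below is the technical SD over both arrays of a comparison.

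En1 and En2 are the engrailed homeodomain factors, which mark the midbrain and anterior hindbrain around the isthmic organiser, the signalling centre at their boundary. Cnpy1, a neighbour of En2 on the chromosome, encodes a regulator of FGF signalling at that boundary. Foxa2 and its relative Foxa1 are forkhead factors of the floor plate, of midbrain dopamine progenitors and of the endoderm. Shh is the ligand that the notochord and floor plate secrete, and Nkx2-2 is a homeodomain factor switched on in the ventral neural tube by high Shh signalling. Otx2 specifies forebrain and midbrain, and Lmx1a and Lmx1b are LIM-homeodomain factors of the midbrain dopamine lineage. None of these is a standard fibroblast marker.

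Promoter sequence was read from RefSeq, build GRCm38.p6, as the 250 bases before each annotated start, given on the strand of the gene. It held 14 such windows for 8 of the 10 genes, and had no entry for En2 or Shh. A search was made for 4 short motifs on both strands. These were TGTTTAC, the core bound by FOXA factors, TAATTA, a homeodomain core, TAATCC, an OTX core, and TGGGTGG, the core of the site of the GLI factors that carry the Hedgehog signal. Of all 32851 windows of this length in the table, 3.17% held the FOXA core, 4.84% the homeodomain core, 6.25% the OTX core and 8.11% the GLI core. Among the members' windows, 1 of Cnpy1 held the GLI core, that of Foxa1 held the FOXA core, and 2 of Otx2 held homeodomain cores, with an OTX core in one of them. No searched letters were found in the windows of En1, Foxa2, Nkx2-2, Lmx1a and Lmx1b.

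Of these, 4 windows are shown, those of 3 members that were higher in the RNA labelled CycG2-/- and that of Foxa1. The window of Foxa1 holds the FOXA core, and Foxa1 transcript was not detected. No link between a motif and a level was tested. Capitals mark a motif, in Cnpy1 the reverse complement of the GLI core from base -80 and in Foxa1 the reverse complement of the FOXA core from base -141. For Foxa2 the window of the most upstream of 3 annotated starts is given. For Cnpy1 the window with the motif is given, and the window of its other annotated start held none of the motifs. They lie, all on the minus strand, at chr5:28245789-28246038 (Cnpy1), chr12:57546112-57546361 (Foxa1), chr2:148046970-148047219 (Foxa2) and chr2:147186403-147186652 (Nkx2-2).
Cnpy1: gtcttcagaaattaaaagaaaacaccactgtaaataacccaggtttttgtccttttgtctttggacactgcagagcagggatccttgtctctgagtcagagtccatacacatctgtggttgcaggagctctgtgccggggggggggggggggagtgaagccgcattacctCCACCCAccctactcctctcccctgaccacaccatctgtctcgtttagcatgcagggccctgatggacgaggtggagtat
Foxa1: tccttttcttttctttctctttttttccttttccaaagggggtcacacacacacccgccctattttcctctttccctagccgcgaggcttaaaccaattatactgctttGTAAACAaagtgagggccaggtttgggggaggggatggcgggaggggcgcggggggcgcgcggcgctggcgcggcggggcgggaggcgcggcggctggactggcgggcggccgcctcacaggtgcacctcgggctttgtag
Foxa2: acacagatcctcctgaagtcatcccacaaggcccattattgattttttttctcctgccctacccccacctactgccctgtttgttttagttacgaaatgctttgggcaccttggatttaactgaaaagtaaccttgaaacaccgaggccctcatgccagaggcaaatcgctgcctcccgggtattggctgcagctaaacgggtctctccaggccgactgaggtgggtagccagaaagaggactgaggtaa
Nkx2-2: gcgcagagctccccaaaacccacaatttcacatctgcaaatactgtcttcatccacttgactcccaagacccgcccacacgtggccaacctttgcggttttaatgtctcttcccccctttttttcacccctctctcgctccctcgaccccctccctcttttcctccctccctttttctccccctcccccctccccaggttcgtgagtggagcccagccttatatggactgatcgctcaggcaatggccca

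A probe was counted as measured in a comparison when at least 1 of its RNAs exceeded background clearly, by the scanner's flag, on both arrays. It was called higher when its log2 ratio of knockout over WT reached 1 on each array, and lower when it reached -1 on each. In the CycG2 comparison 5 of the 10 genes were measured and 4 of them, En2, Foxa2, Cnpy1 and Nkx2-2, were called higher in the RNA labelled CycG2-/-. Of all 25431 probes measured there, 6.37% were called, 2.31% higher and 4.06% lower. In the CycG1 comparison, which the choice of genes did not use, 2 of the 10 genes were measured and neither was called, where 5.79% of 25541 probes were called, 1.99% higher and 3.8% lower. Levels below are normalised log2 signals, which are not comparable between probes, and which between the pairs rest on the normalisation across arrays.

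**Figure D1:**
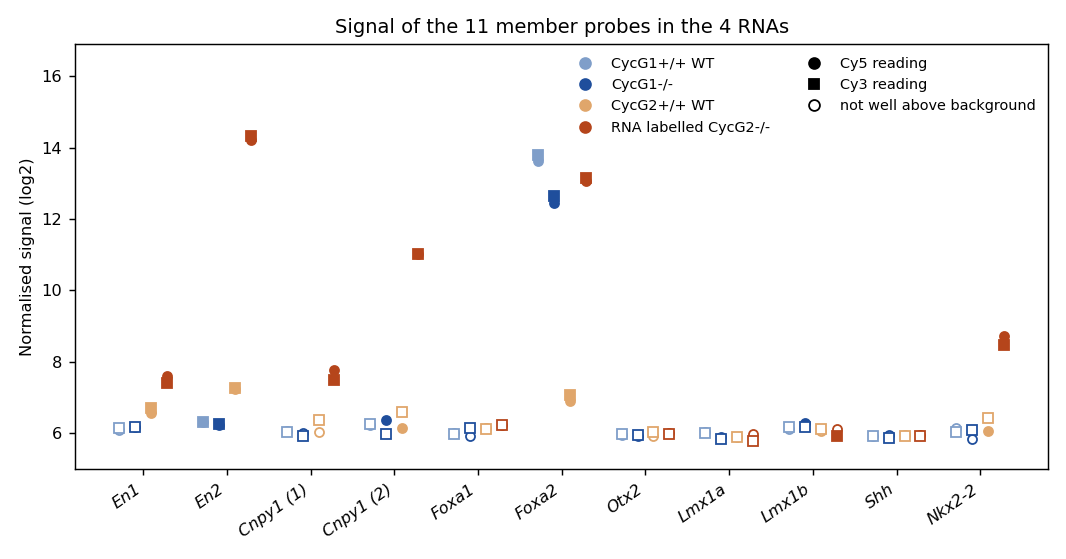
Normalised log2 signal (y axis) of each of the 11 probes (x axis) in the 4 RNAs, with a circle for the Cy5 reading and a square for the Cy3 reading. Filled points were well above background; Cnpy1 (1) is the probe nearer Shh and Cnpy1 (2) the brighter one. En2 stands at 14.22 and 14.34 in the RNA labelled CycG2-/- alone, while Foxa2 lies between 12.46 and 13.80 in 3 RNAs and near 7 in CycG2+/+ WT.

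The checks of the labels come first, since every direction rests on them. At the brighter of 2 Ccng1 probes the log2 ratio was -6.67 ± 0.13 in CycG1-/- RNA. The only Ccng2 probe gave 0.09 ± 0.27 in the CycG2 comparison, with 0.28 on one array and -0.10 on the other. Ccng2 transcript was thus not lower at this probe in the knockout of that pair, which is why it is called the RNA labelled CycG2-/-. Ccng1 was higher in the RNA labelled CycG2-/- than in its WT at both probes, by 2.49 ± 0.04 and 2.67 ± 0.03. Both knockout RNAs also differed from their WT in sex-linked transcripts. Xist was higher by 7.54 ± 0.43 in CycG1-/- RNA and by 7.24 ± 0.46 in the RNA labelled CycG2-/-, and the Y-linked gene Eif2s3y was at least 82.4-fold and at least 51.3-fold lower. The paper ascribes the higher Xist in both knockouts to a female origin of those MEFs. Genotype and sex of the culture thus cannot be told apart in either pair.

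En2 was read by a probe printed 10 times on each array (build mm8, chromosome 5, 28502715 to 28502775, plus strand). Its level was 6.33 in Cy5 and 6.31 in Cy3 for CycG1+/+ WT, and 6.22 and 6.27 for CycG1-/- RNA. It was 7.25 and 7.27 for CycG2+/+ WT, and 14.22 and 14.34 for the RNA labelled CycG2-/-. En2 was close to background in both RNAs of the CycG1 pair. In CycG2+/+ WT it was low, but every spot used was above background. All 4 RNAs counted as above background, although for CycG1-/- RNA in Cy3 only 5 of the 9 spots used were.

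Within the CycG2 pair the En2 log2 ratio was 6.94 with the knockout RNA in Cy5 and 7.09 with it in Cy3, a mean of 7.02 ± 0.11 or 129-fold. It ranked 2 of 25431 probes from the highest. Before normalisation the 10 spots in the RNA labelled CycG2-/- ran from 23735 to 34713 units in Cy5, with a median of 27731, and from 11244 to 16505 in Cy3, with a median of 12890. The same spots in CycG2+/+ WT had medians of 78.8 in Cy3 and 179 in Cy5. The WT reading was therefore above that of both RNAs of the other pair while the channel beside it was bright, and the part of that channel in it was not tested. The log2 ratio of En2 in the CycG1 pair was -0.09 and -0.06, a mean of -0.08 ± 0.02, at levels just above background.

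En1, the paralogue of En2, was also read by a probe printed 10 times (chromosome 1, 122435036 to 122435095, plus strand). It was not well above background in CycG1+/+ WT, at 6.09 and 6.15, or in CycG1-/- RNA, at 6.18 and 6.17. It was well above background in CycG2+/+ WT, at 6.57 and 6.71, and in the RNA labelled CycG2-/-, at 7.59 and 7.41. In this last pair the log2 ratio was 0.89 and 0.84, a mean of 0.86 ± 0.03, so that En1 missed the threshold on both arrays with a difference larger than their spread. It was called under 4 of the alternatives tried, in which the background was treated in other ways, and reached 1.98 with the scanner's own log ratio.

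Cnpy1 had 2 probes under its own name, 30.7 and 33.9 kb from that of En2 and on the other strand. The brighter (chromosome 5, 28533437 to 28533496) read 11.03 and 11.01 in the RNA labelled CycG2-/-, and between 5.99 and 6.59 in the 6 readings of the other RNAs. Its log2 ratio there was 4.45 and 4.85, a mean of 4.65 ± 0.29, with CycG2+/+ WT above background on 1 of the 2 arrays. The other (28536591 to 28536650) read 7.76 and 7.50 in the RNA labelled CycG2-/- and was below background in every other RNA, which gives only a bound of at least 2.69-fold higher, the measured log2 ratio being 1.43 ± 0.05. A further probe (28531757 to 28531816), which carries an older name of Cnpy1 and so was not among the 11, was at least 14.5-fold higher. None of these probes was measured in the CycG1 pair, and 1 reading of CycG1-/- RNA at the brighter probe was flagged as above background.

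Foxa2 showed another pattern. Its probe was printed 10 times (chromosome 2, 147734403 to 147734462, minus strand). It read 13.62 in Cy5 and 13.80 in Cy3 for CycG1+/+ WT and 12.46 and 12.64 for CycG1-/- RNA. It read 6.91 and 7.08 for CycG2+/+ WT, and 13.06 and 13.14 for the RNA labelled CycG2-/-. Foxa2 was thus bright in 3 of the 4 RNAs, a WT among them, and low in CycG2+/+ WT alone.

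The order from the highest was CycG1+/+ WT, the RNA labelled CycG2-/-, CycG1-/- RNA and CycG2+/+ WT. Between the WT RNAs, which were on different arrays, the difference was 6.71 on the log2 scale or 105-fold, larger than the 6.10 ± 0.18 between the RNA labelled CycG2-/- and its own WT (5.98 and 6.22 on the arrays, 68.6-fold). The RNA labelled CycG2-/- was 0.61 below CycG1+/+ WT. Over the 22250 probes above background in every reading, the median difference in level between any 2 RNAs was at most 0.06 in size. In unnormalised Cy5 signal the 10 spots of Foxa2 had medians of 21963 in CycG1+/+ WT, 10390 in CycG1-/- RNA, 12429 in the RNA labelled CycG2-/- and 144 in CycG2+/+ WT.

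Foxa2 had log2 ratios in the CycG1 pair of -1.34 and -0.98, a mean of -1.16 ± 0.25, which missed the threshold on 1 of the 2 arrays. The sign of the Foxa2 difference was therefore opposite in the 2 pairs, and with 1 RNA per genotype this was not tested. Foxa1, from the same family, was not well above background in any of its 8 readings (chromosome 12, 58459021 to 58459080), which lay between 5.93 and 6.24.

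**Figure D2:**
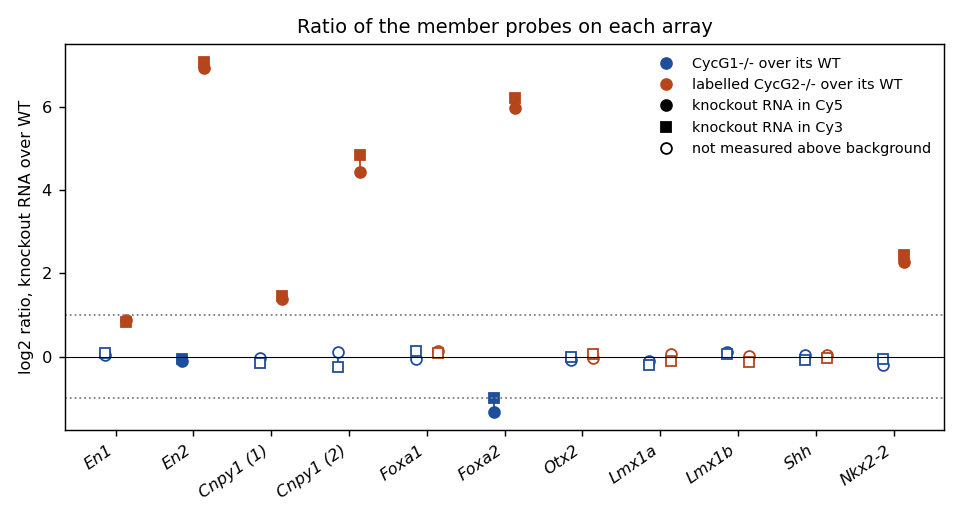
Log2 ratio of knockout over WT RNA (y axis) for each probe (x axis) on each array, circles with the knockout in Cy5 and squares with it in Cy3, joined by a line within a pair. Open points were not measured above background and dotted lines mark the threshold of 1. In the CycG2 pair En2 and Foxa2 lie above 5.9, and in the CycG1 pair Foxa2 lies at -1.34 and -0.98.

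Nkx2-2 (chromosome 2, 146874593 to 146874617, minus strand), from 859.8 kb away on the same chromosome as Foxa2, was, like En2, high in the RNA labelled CycG2-/- alone. It read 6.14 and 6.03 in CycG1+/+ WT, and 5.84 and 6.10 in CycG1-/- RNA, all below background. In CycG2+/+ WT it read 6.05 and 6.44, with the first of these flagged as above background. In the RNA labelled CycG2-/- it read 8.72 and 8.48, above every other reading, and the log2 ratio of 2.28 and 2.43 had a mean of 2.35 ± 0.11.

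Shh, whose protein lies upstream of Nkx2-2 in the neural tube, was not well above background in any reading, nor was any of the spots used. Its probe, printed 10 times, lies 285.5 kb from that of En2 (chromosome 5, 28788230 to 28788289), and its levels ran from 5.86 to 5.96. Otx2, also printed 10 times (chromosome 14, 47580372 to 47580431), was equally dim, at 5.92 to 6.04. Lmx1a (chromosome 1, 169684432 to 169684491) stayed below background at 5.78 to 6.02. Lmx1b (chromosome 2, 33386753 to 33387100) lay between 5.92 and 6.29 and was flagged as above background in 1 of 2 readings of each knockout RNA. For these genes, as for Foxa1, no fold change could be given. In an RNA from a whole culture, a gene carried by few cells and a low level in every cell cannot be told apart, which holds for all values here.

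The chromosome around En2 and Foxa2 was then described. The ratios of both chose the group, and Cnpy1 and Nkx2-2 are members too. Calls at these genes are therefore no separate result on position. Cnpy1 and Nkx2-2 were measured only through the RNA in which they were high. Of all probes measured in the CycG2 pair, 2.31% were called higher and 4.06% lower. Within 1 Mb of En2, 13 probes were measured in the CycG2 pair, and those called were the probes of En2 and Cnpy1, 4 in all. The nearest genes beyond them were not called. Insig1, a regulator of sterol synthesis at 94.2 and 97.1 kb, gave 0.38 ± 0.03 and 0.52 ± 0.07, and the 4 probes of Rbm33 gave between -0.13 and 0.22. Paxip1, Dpp6 and 9530036O11Rik lay at 428.6 kb or more and gave 0.32, -0.03 and -0.04. None of 10 probes was called in the CycG1 pair.

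Around Foxa2, 17 probes were measured in the CycG2 pair. Nkx2-2 and Foxa2 were called higher and Thbd, the thrombomodulin gene 361.5 kb away, was called lower, by -2.32 ± 0.08, and Thbd was lower in CycG1-/- RNA too, by -2.11 ± 0.11. Nkx2-4, a relative at 957.7 kb, gave 0.10 ± 0.13. The other genes measured there were not called in either pair. They were Xrn2, LOC672341, Sstr4, Cd93, Nxt1, Gzf1, Napb and Cst3, with Cst8, Cst13 and Cst9 measured in the CycG1 pair alone.

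**Figure D3:**
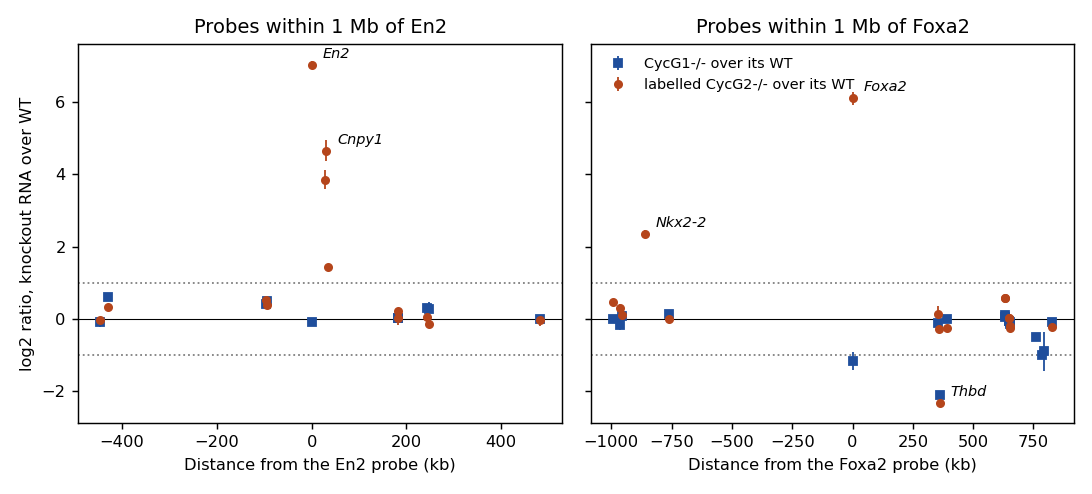
Log2 ratio of knockout over WT RNA (y axis, bars are the SD between 2 arrays) for each measured probe by its distance in kb (x axis) from the probe of En2 (left) or Foxa2 (right). In the CycG2 pair En2 at 7.02 and the 3 Cnpy1 probes stand above all neighbours. Nkx2-2 lies at 2.35, and the only probe measured between it and Foxa2 was that of LOC672341, at -0.005 and 762.2 kb from Foxa2.

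The genes with the most similar pattern over the 4 RNAs were sought among 25429 probes, by the Euclidean distance between levels centred on each probe's mean. For En2 they were Sox2, a factor of neural progenitors, at 1.29, then the long noncoding RNA Pantr1 (2.21), the glial membrane protein gene Gpm6b (2.39), Cnpy1 itself (2.61) and Sorbs2 (2.76). Gpm6b differed from En2 in the CycG1 pair, at 2.25, and 1 of its 2 measured probes was called in the CycG2 pair. For Foxa2 they were Mgst1, a microsomal glutathione transferase, with 1.22 and 2.36 at its 2 probes, the potassium channel subunit gene Kcnab1 (1.43), Cd24a (2.69), the transporter gene Slc43a3 (2.71) and Gm6212 (2.73). Mgst1 and Kcnab1 were, like Foxa2, lower in CycG1-/- RNA, by -1.71 and -1.45 at their closest probes, and higher in the RNA labelled CycG2-/-, by 4.67 and 4.88. Cd24a was higher in both, by 1.11 and 4.15, as was Gm6212, by 4.05 in the CycG2 pair.

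Genes around the members were read from lists of the isthmus, floor plate, Hedgehog pathway and ventral midbrain, chosen with earlier results of these data known. Of 12 isthmic organiser genes 7 were measured in the CycG2 pair, none was called higher, and Fgf18 was lower, at -2.65 ± 0.15. Dusp6, a feedback target of FGF signalling, gave 0.94, Spry2 0.61 and Fgf8, the organiser's main ligand, 0.11, while Wnt1, Pax5, Pax8 and Fgf17 were not measured. In the CycG1 pair Fgf18 (-4.30 ± 0.08) and Dusp6 (-1.17 ± 0.07) were lower, of 8 measured. The median log2 ratio of the list was 0.44 and 0.12, beside -0.0071 and -0.0023 over all probes measured.

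Of 11 other floor plate genes 7 were measured in the CycG2 pair, none was called higher and 3 were lower. These were the guidance ligands Slit2 (-1.76, at 2 of 4 probes) and Slit3 (-4.43 ± 0.11), and the heparan sulfatase Sulf1 (-3.32 ± 0.18), with a list median of -0.24. Ntn1, the floor plate guidance cue, gave 0.00. Sulf1 alone was lower in the CycG1 pair, at -1.25, of 8 measured, with a median of -0.05.

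Of 16 Hedgehog pathway genes 13 were measured in each pair. In the CycG2 pair none was called higher and 3 were lower. Hhip, a pathway inhibitor, was at least 3.37-fold lower, the co-receptor Gas1 gave -2.21 ± 0.20 and the acyltransferase Hhat -1.15 ± 0.09 (1 of 2 probes). The receptor Ptch1, which is also a target of the pathway, gave -0.03 ± 0.26, and Gli1, the most direct readout, was not measured in either pair. In the CycG1 pair Hhip (2.31 ± 0.04, 1 of 2 probes) and Gli2 (1.22 ± 0.13) were higher and none was lower. The list medians were -0.10 in the CycG2 pair and 0.26 in the CycG1 pair.

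Of 12 genes of midbrain dopamine neurons 7 were measured in the CycG2 pair. Aldh1a1, a retinaldehyde dehydrogenase, was higher by 3.84 ± 0.10, and was lower in CycG1-/- RNA at -5.60 ± 0.32. Th, the rate-limiting enzyme of dopamine synthesis, and the dopamine transporter Slc6a3 were not measured. Nr4a2 gave -0.70, and was higher in CycG1-/- RNA by 1.34. The median of the list was -0.21 in the CycG2 pair and -0.19 in the CycG1 pair.

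Of 12 factors that pattern the neural tube 4 were measured in the CycG2 pair. Pax3, a dorsal factor, was lower at -2.85 ± 0.07 at 1 of its 2 probes. Nkx6-1, a ventral factor, gave 0.88 and 1.09, below the threshold on 1 array, and Olig2 and Pax6 were not measured. Nkx6-2 was lower in the CycG1 pair at -1.37, of 3 measured.

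**Figure D4:**
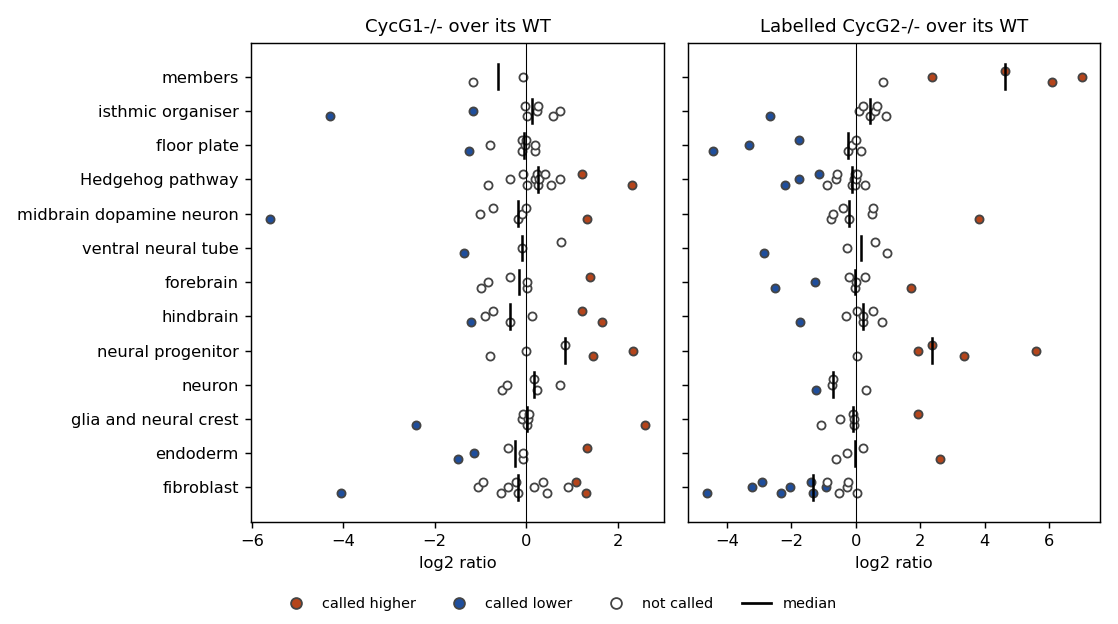
Log2 ratio of knockout over WT RNA (x axis) for each measured gene of the members and the 12 lists (y axis), in the CycG1 pair (left) and the CycG2 pair (right), at the brightest measured probe of the gene. A gene is coloured where any of its probes was called, and bars are list medians. In the CycG2 pair the neural progenitor list has 4 of 5 genes called higher and the fibroblast list 8 of 13 called lower.

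Markers of the cell types that a culture could hold were read beside the members. Of 10 neural progenitor genes 5 were measured in the CycG2 pair and 4 were called higher, namely Sox2 (5.59 ± 0.35), Nes (3.37 ± 0.23), Notch1 (2.36 ± 0.22) and Cdh2 (1.92 ± 0.16, 1 of 3 probes). Msi1 gave 0.05 and was not called, and Sox1, Sox3, Hes5, Prom1 and Fabp7 were not measured. The signals of the 10 genes, dim ones included, summed to 3504 and 4025 units in CycG2+/+ WT and to 28214 and 28341 in the RNA labelled CycG2-/-. In the other pair the sums were 3960 and 4331 in CycG1+/+ WT and 4908 and 5324 in CycG1-/- RNA, where Nes (2.34) and Notch1 (1.46) were called higher and Sox2 was not measured. The sum was highest in the RNA labelled CycG2-/-, as were En2, Cnpy1 and Nkx2-2, while Foxa2 was bright in both RNAs of the CycG1 pair as well. A sum weighs its brightest genes most, and its part in the levels of the members was not tested.

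Of 10 neuronal genes 4 were measured in the CycG2 pair, none was called higher and Map2 was lower (-1.24, 1 of 3 probes). Of 10 glial and neural crest genes 6 were measured and Aqp4 was at least 3.72-fold higher at 1 of 3 probes. Of 13 endodermal genes, among which Foxa2 is also known, 4 were measured and Gata6 was higher (2.62 ± 0.07, 1 of 2 probes). The defining endodermal genes Sox17, Alb, Ttr, Hnf4a and Foxa3 were not measured in either pair. The endodermal signals summed to 48678 and 45756 in CycG1+/+ WT, 34977 and 37725 in CycG1-/- RNA, 1097 and 1141 in CycG2+/+ WT, and 1475 and 1569 in the RNA labelled CycG2-/-. The list also holds the keratin genes Krt8 and Krt18, which were above background in both RNAs of the CycG1 pair. In the CycG2 pair Krt8 was not measured, and Krt18 was above background in CycG2+/+ WT but not in the RNA labelled CycG2-/-. The sum is therefore not a measure of endodermal cells. Foxa2 was bright at both the high and the low sums, and the part of endodermal cells in its level was not tested.

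Among genes of the CycG1 pair, S100b (2.60) was higher and Mbp (-2.40, at 2 of 3 probes) lower among glial and neural crest genes, while Afp (1.34) was higher and Gata6 (-1.49, 2 of 3 probes) and Krt8 (-1.14, 1 of 2 probes) lower among endodermal genes. In the CycG2 pair the forebrain gene Lhx2 was higher (1.73) and Dlx1 (-1.27) and Dlx2 (-2.50) were lower. The hindbrain gene Egr2 (1.65) was higher in the CycG1 pair.

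All 13 fibroblast markers were above background in all 4 RNAs. In the RNA labelled CycG2-/- 8 of them were called lower and none higher, with a list median of -1.34. Thy1 (-3.22), Col1a2 (-2.31) and Dcn (-1.34) passed at every measured probe. Pdgfra (-4.63) passed at 1 of 2 probes, Col3a1 (-2.90) and Col1a1 (-1.38) at 2 of 3 and Prrx1 (-2.03) at 5 of 6. Fn1 passed at 1 of 4 probes and gave -0.92 at its brightest. Vim, the mesenchymal intermediate filament, gave 0.05 ± 0.60, with 0.48 on one array and -0.37 on the other. S100a4 also differed in sign between the arrays, at 0.10 and -1.16. The 13 signals summed to 852054 and 882084 units in CycG2+/+ WT and to 329006 and 480821 in the RNA labelled CycG2-/-. The sum was lower in the other knockout RNA too, at 672393 and 681814 in CycG1+/+ WT and 382135 and 544117 in CycG1-/- RNA. In CycG1-/- RNA Pdgfrb (1.09) and Lum (1.31) were higher and Dcn (-4.05, 1 of 2 probes) lower, with a median of -0.19. The part of these differences in the levels of the members was not tested.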

How the data were processed

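Per the labels, total RNA was amplified with an oligo-dT primer into cRNA that carried Cy3 or Cy5, and was hybridised to Agilent arrays of the mouse genome. Feature Extraction software (Agilent) was used by the authors to read spots, in version 9.1 by the submitters' processing notes and 10.5.1.1 by the headers. The deposited files hold spot and local background intensity on a linear scale, neither corrected nor normalised, and the scanner's log10 ratio of Cy5 over Cy3 after its own correction. The authors' series table holds the same log10 ratio turned to knockout over WT. The deposited files also hold the scanner's p-values of each ratio, which were not used.

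Intensities were corrected in limma 3.58.1 (R 4.3.3) by normexp with an offset of 50, outlying spots (114 to 203 per array) and control spots were left out, and each array was normalised by loess. Spots of a probe were averaged, ratios were turned to knockout over WT, and both arrays were averaged. Levels per channel came from Aquantile normalisation. A probe was above background in a reading where at least 50% of its used spots carried the scanner's flag, and no spot was saturated. Where a genotype was dim on both arrays, the bound sets the mean of the bright RNA against the mean of, per array, the dim signal or, if higher, the channel's lowest signal above background, and is open to dye bias. Between 25366 and 27757 of 43379 gene spots per channel and array were well above background. Precision is limited by the number of arrays. The steps were tested on simulated data, in which the changed probes were printed once and were well above background in both dyes. Changes at dim probes and the bounds were not covered.

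Probes were named by the scanner files for the members and otherwise through the RefSeq table (GRCm38.p6), where accessions matched 24375 probes, symbols 6301 and older symbols 2426, and 8072 kept their names. Probe positions are those of the array design, build mm8. A list gene was called where any measured probe was called, and its value is that of its brightest measured probe. Text names every member, the list genes called, the genes measured within 1 Mb of En2 or Foxa2 and the 5 nearest patterns of each. Some list genes are not reported here. Other list genes were named after their values were seen. Members and lists were chosen with earlier results of these data known. Alternatives were other background corrections, median centring, the series table, other filters and thresholds, outlying spots kept and each array alone.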

Additional observations from a re-analysis of the deposited data

Results flagged for a closer look

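Foxa2 had a log2 ratio of -1.16 in the CycG1 pair and 6.10 in the CycG2 pair, with every array of one pair on the opposite side of 0 from every array of the other. En2 had -0.08 in the CycG1 pair and 7.02 in the CycG2 pair and met the same criterion, although its value in the CycG1 pair was taken close to background. The difference between the pairs was not tested for either gene, since each genotype was 1 RNA.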

How the results depend on the processing

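No paired analysis was possible because each pair held 1 RNA per genotype, and the replicate numbers mark a dye swap. In the CycG2 pair the 4 member genes called higher became 5, with En1 added, under the scanner's log ratio, the series table, normexp with an offset of 0 and no background correction. They became 2, En2 and Foxa2, where both genotypes had to be above background. In the CycG1 pair the number of members called lower ran from 0 to 1 with each array alone, the 1 being Foxa2. The count of all probes called moved from 1479 in the CycG1 pair and 1619 in the CycG2 pair to 2855 and 3396 with the scanner's log ratio, 2849 and 3392 with the series table, 2285 and 2603 with an offset of 0, 813 and 955 with median centring, and 385 and 467 at 4-fold. The cause was not tested beyond the higher threshold. No measured member's ratio changed sign under any alternative. The ratios in the CycG2 pair ran from 6.94 to 8.02 for En2, 5.98 to 7.45 for Foxa2, 4.45 to 7.50 and 1.39 to 4.22 for Cnpy1, 2.28 to 5.72 for Nkx2-2 and 0.84 to 1.98 for En1. In the CycG1 pair they ran from -1.34 to -0.98 for Foxa2 and from -0.35 to -0.06 for En2. The bound of 2.69-fold for Cnpy1 was 2.62 by the smaller array and 2.87 with quantile normalisation. Of 44 member levels 42 moved by less than the technical spread with quantile normalisation. With the scanner's log ratio the fibroblast counts were unchanged in both pairs, and the neural progenitor genes called higher went from 2 to 3 in the CycG1 pair and stayed at 4 in the CycG2 pair. Of the other lists, in the CycG2 pair the count called higher went from 0 to 3 for hindbrain, 0 to 2 for ventral neural tube, 1 to 2 for forebrain and 0 to 1 for isthmic organiser genes, and the count called lower from 1 to 2 for neuronal and 0 to 1 for endodermal genes. In the CycG1 pair the count called lower went from 1 to 3 for midbrain dopamine neuron, 1 to 2 for hindbrain, and 0 to 1 for forebrain and neuronal genes, and the count called higher from 0 to 1 for floor plate, ventral neural tube and neuronal genes. The other list counts moved by at most 1.5 times. Dim signals limit Foxa1, Otx2, Lmx1a, Lmx1b and Shh, which have no measured ratio. With 1 RNA per genotype no difference has a replicate check.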
